A study of Mus musculus with 7 samples.

Results

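The cytosolic ribosomal protein genes were taken as the genes whose symbol starts with Rpl or Rps followed by a digit, together with Rplp0, Rplp1, Rplp2 and Rpsa. Symbols that start with Rps6k, which are kinases, and symbols with "-ps", which are pseudogenes, were left out (10 and 9 genes). This gave 86 of the 31053 genes in the matrices, 52 named for the large subunit and 34 for the small subunit, and all 86 were protein-coding in GENCODE M21, on 19 chromosomes with at most 14 on any of them. Their UMIs numbered 42275387 of the 166908464 in the 12168 cells kept, and 82 of the 86 were at 50 CPM (UMIs of a gene scaled to a fixed library total) or more in the mean of the 7 libraries.

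The study profiled single tumor cells of mouse mammary tumors by 10x Chromium droplets and 3' libraries, where a unique molecular identifier (UMI) marks each captured transcript so that it is counted once. The labels give the strain as FVB/NJ for all tumors but 4T1, and the study's list of reagents gives the models as FVB/N. BRCA1-null tumors arose in mice with floxed Brca1 and floxed Trp53 (both F/F) and Cre under the keratin 14 promoter (K14-Cre), and Neu tumors in mice with the MMTV-Neu transgene from a cross to FIP200 F/F mice, each as 2 libraries, A and B. FIP200 floxed alleles without Cre are stated for Neu A. PyMT tumors, also 2 libraries, were transplants into wild-type FVB/NJ hosts of FF99WT, a single line from an MMTV-PyMT tumor with FIP200 floxed alleles and no Cre, and the 1 library of 4T1 came from a BALB/C transplant of this carcinoma line transduced with pLenti-GFP. Transplant hosts were 6 to 8 weeks old, the labels call all samples adult and name no treatment, tumors were near 1000 mm3, and CD24+ cells without CD31, CD45 or Ter119 were sorted, so the libraries hold cells of that gate. The letters A and B are also the sequencing batches, and with 2 tumors a type the spread between them is the only error available.

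A eukaryotic ribosome joins a small subunit, which reads the mRNA, and a large subunit, which forms the peptide bond, and each contains a fixed set of proteins beside its RNA. Cells make these proteins in nearly equal numbers, and their mRNAs are among the most abundant of any growing cell. Many begin with a terminal oligopyrimidine (TOP) motif, a C at the cap followed by a run of pyrimidines, by which mTOR signaling acts on their translation through LARP1. A few members have paralogs with restricted or induced expression, and several genes that carry an Rpl or Rps name are not structural parts of the ribosome.

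To show this shared feature, 30 bases around the annotated start (15 before it and 15 from it) are printed for the members the results turn on, with the TOP motif in capitals where it was found. Sequences are from RefSeq on GRCm38.p6 and read 5′ to 3′ on the strand of the gene.
Rpl38, chr11:114668565-114668594 (+): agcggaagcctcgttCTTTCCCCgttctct
Rpl22l1, chr3:28805493-28805522 (+): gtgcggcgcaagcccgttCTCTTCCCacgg
Rps27l, chr9:66946071-66946100 (+): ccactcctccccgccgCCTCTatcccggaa
Rps21, chr2:180257364-180257393 (+): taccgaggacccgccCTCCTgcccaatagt
Rps27rt, chr9:114982725-114982754 (-): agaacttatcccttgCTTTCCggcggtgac
Rpl36al, chr12:69184053-69184082 (-): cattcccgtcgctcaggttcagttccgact
Rpl39l, chr16:10170213-10170242 (+): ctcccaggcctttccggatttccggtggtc
Rpl13, chr8:123102335-123102364 (+): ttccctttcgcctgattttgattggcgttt
The motif was searched as a C, within 5 bases of the start, followed by at least 4 bases that are each C or T, on the strand of the gene only. The first 5 of these windows hold it and the last 3 do not. Rps21 and Rps27l have 2 annotated starts each, and a start with the motif was printed in preference. The other members printed have 1. Of the 86 members 66 had an entry, and 32 of their 78 promoters (41.0%) held the motif, against 6027 of all 32851 promoters (18.3%). The share was 40.4% for members of the large subunit and 41.9% for those of the small subunit. Translation factors and other genes listed as TOP mRNAs were at 42.1% (8 of 19), ribosome biogenesis genes at 18.2% (6 of 33) and mitochondrial ribosomal protein genes at 22.7% (17 of 75). A match describes the letters at an annotated start, and no match says only that they are not within these bases.

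Cells kept had at least 1000 UMIs, 500 genes and under 20% mitochondrial UMIs. They numbered 245 in BRCA1-null A and 1751 to 2308 in the other libraries, with 5578911 to 37693300 UMIs a library and medians of 8609 to 19410.5 UMIs a cell. Libraries shared 118 barcode sequences, carried by 213 of the cells, and doublets were not called. Epithelial markers summed to between 1577 CPM (BRCA1-null A) and 17304 CPM (PyMT B). Both BRCA1-null libraries held more CPM of mesenchymal markers (1059 and 3856, against 5.63 to 156 elsewhere), leukocyte markers (41.0 and 31.2, against 1.16 to 4.65) and endothelial markers (57.7 and 16.0, against 0.849 to 11.9) than the other 5, and erythroid markers stayed at or under 4.56 CPM in every library. These values stand beside each BRCA1-null result below, and their part in it was not tested.

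The members took 20.5% to 31.5% of all UMIs, and more in BRCA1-null than in any other library. Their share was 31.5% in BRCA1-null A and 30.6% in B, 24.6% and 25.2% in PyMT A and B, and 20.5% and 23.4% in Neu A and B. The 4T1 library was at 25.2%. The means were 31.1% ± 0.684 (SD, n = 2) for BRCA1-null, 24.9% ± 0.411 for the PyMT and 22.0% ± 2.07 for Neu tumors, and the libraries of the 3 types did not overlap. BRCA1-null was highest and Neu lowest in batch A and again in batch B. The largest difference between replicates was 2.92 percentage points (Neu), against 9.09 between the highest and the lowest type (BRCA1-null and Neu). PyMT A (24.6%) and Neu B (23.4%) were closer to each other than the 2 Neu replicates were. No p is attached to a sum over chosen genes. The order of the types was the same with the study's filters, which drop shared barcodes and keep 11639 cells, with every deposited barcode, without mitochondrial UMIs and in the median cell, where the types were 7.42 to 9.64 points apart.

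**Figure D1:**
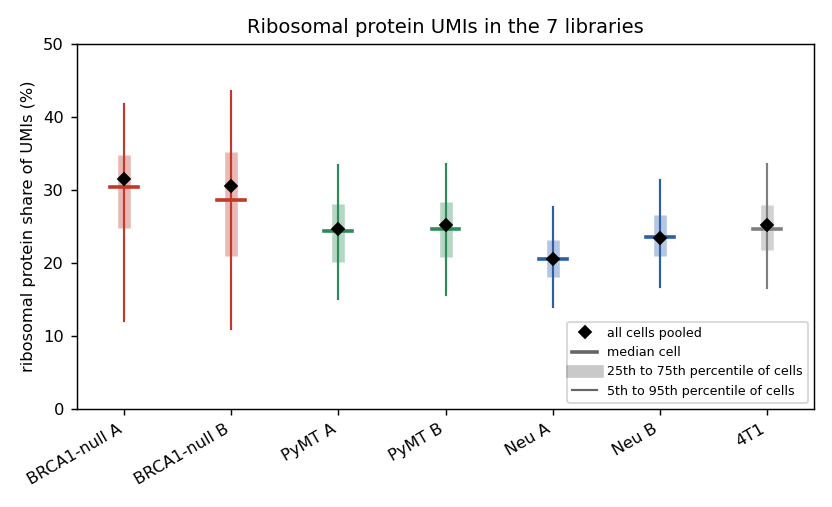
Share of UMIs taken by the 86 ribosomal protein genes (%, vertical axis) in each of the 7 libraries; diamonds pool all cells, horizontal bars are the median cell, boxes the 25th to 75th and lines the 5th to 95th percentile of cells. Both BRCA1-null libraries lie above the others when pooled (31.5% and 30.6%) and have the widest spread over cells.

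A share of UMIs also depends on what else a cell makes. Milk genes, 12 caseins, whey proteins and fat globule genes, took 0.140% and 0.224% of UMIs in BRCA1-null, 1.91% and 2.51% in PyMT tumors, 5.76% and 6.21% in Neu and 0.0675% in 4T1. With their UMIs removed, the ribosomal protein share was 31.1%, 25.5% and 23.4% in the means of BRCA1-null, PyMT and Neu, so the order held and the range fell to 7.74 points. Across cells of a library, the share and that of milk genes had a Spearman's rho of -0.150 to -0.498. That with translation factors was 0.638 to 0.797, each over the cells of 1 library with shared depth.

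Both subunits contributed alike. Large subunit members gave 1.30 and 1.37 UMIs per UMI of the small subunit in BRCA1-null A and B, 1.34 and 1.39 in PyMT tumors, 1.39 and 1.37 in Neu and 1.36 in 4T1. These ratios overlapped between the tumor types. Across cells, the shares of the 2 subunits had a Spearman's rho of 0.912 to 0.979 in the 7 libraries, which share depth within a cell.

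Single members were set against the total of all members in a library, so that a change of the whole group does not enter. By this measure 73 of the 82 members at 50 CPM or more were within 2-fold of the median of the other libraries in every library. The SD of the log2 share over the 7 libraries had a median of 0.28 and was under 0.25 for 32 members. The steadiest was Rpl18, at 0.884% to 1.09% of ribosomal protein UMIs (SD 0.10 on the log2 scale), followed by Rps15 and Rps3 (both 0.11), all core subunits of the ribosome. The widest were Rpl38 (0.99), Rps27l (0.89), Rps21 (0.73), Rps27rt (0.70), Rps28 (0.62), Rpl22l1 (0.62), Rpl36al (0.55) and Rpl27 (0.52).

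Members with short coding sequences moved together from library to library. Across the 82 members, coding length (75 to 1257 bases) and the log2 share over the median of the other libraries had a Spearman's rho of -0.83 in PyMT B and -0.67 in Neu B, where short members were high. In 4T1 and Neu A, where they were low, it was 0.70 and 0.52. It was -0.25 in BRCA1-null A, 0.26 in BRCA1-null B and 0.14 in PyMT A. These are descriptions over genes of 1 library, which are not independent. The 27 shortest members (up to 395 bases) took 27.3%, 20.9%, 23.0%, 28.5%, 20.4%, 26.2% and 19.2% of ribosomal protein UMIs in BRCA1-null A and B, PyMT A and B, Neu A and B and 4T1. The 28 longest (over 563 bases) took from 33.4% in PyMT B to 44.2% in 4T1. Short members thus took the most in PyMT B, BRCA1-null A and Neu B, which are of 3 different tumor types, and the least in 4T1. Median UMIs per cell were 19410.5, 18273 and 15642 in those 3 libraries and 8609 to 11970 in the other 4, and the part of depth in this ordering was not tested.

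**Figure D2:**
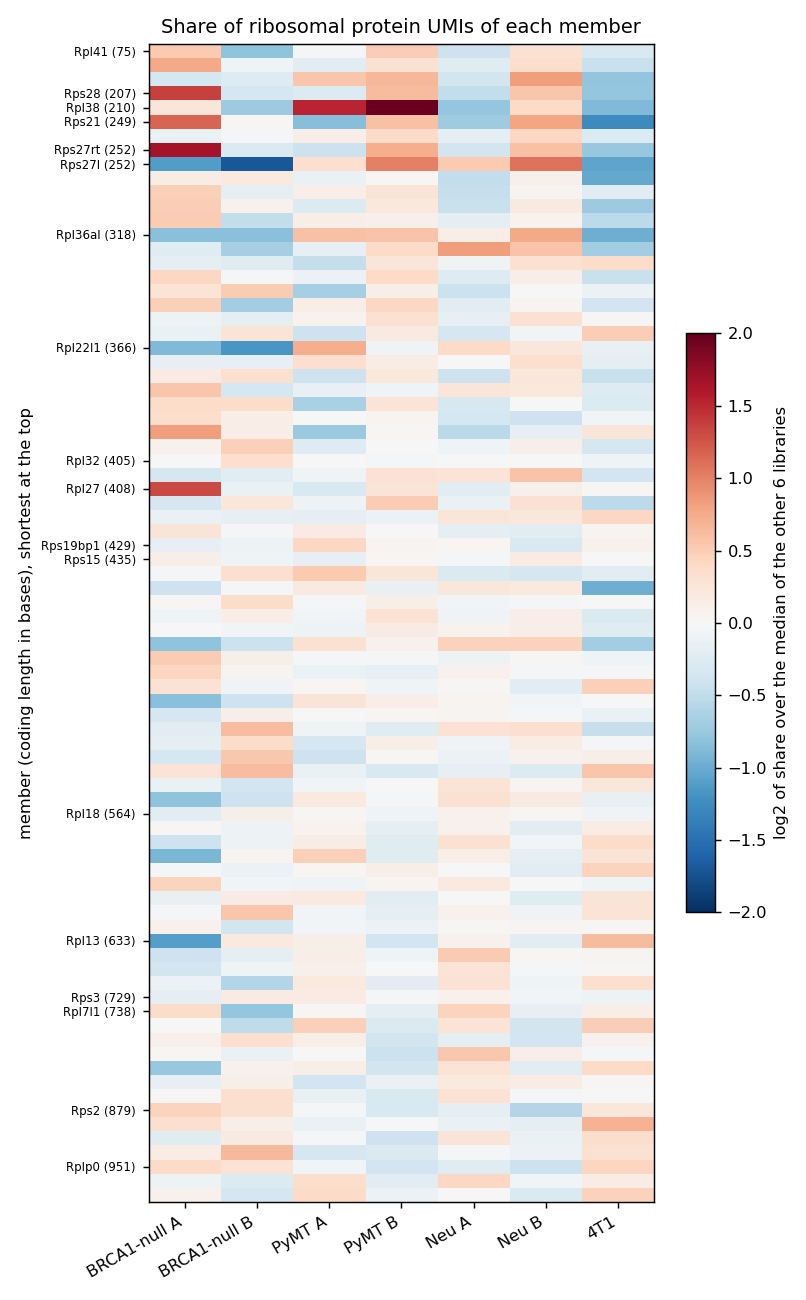
Log2 of each member's share of ribosomal protein UMIs over the median of the other 6 libraries (color scale), for the 82 members at 50 CPM or more, ordered by coding length in bases with the shortest at the top and some of the members described in the text labeled. Red at the top of PyMT B and Neu B and blue at the top of Neu A and 4T1 mark the short members, and Rpl38 is dark red in both PyMT libraries.

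To compare tumor types gene by gene, UMIs were summed over the cells of each library and the contrast of each type with the other pair was tested by edgeR's quasi-likelihood method on TMM-normalized sums of 6 libraries (3 residual degrees of freedom). The 3 comparisons share libraries. They covered 13950 genes, 84 of them members, since Rpl3l and Rpl10l were too low. In BRCA1-null tumors 1 member was higher and 2 were lower at an adjusted p under 0.05 (Benjamini-Hochberg), while 17.8% of all genes were higher and 9.72% lower. The member counted as higher, Rpl39l, passed the filter on low counts only through its BRCA1-null counts, so it had to differ and its call supports nothing. In PyMT tumors 1 was higher and 0 lower, where 7.05% and 7.37% of all genes were. In Neu tumors 0 were higher and 0 lower, against 13.4% and 9.76% of all genes. At an unadjusted p under 0.05 there were 8, 4 and 6 members in the 3 comparisons, against 41.0%, 32.8% and 39.5% of all genes. DESeq2 called 2 higher (Rpl39l and Rps2) and 3 lower (Rps27l, Rpl22l1 and Rpl36al) in BRCA1-null, where it called 17.9% and 11.4% of all genes. In PyMT it called 3 higher (Rpl38, Rpl22l1 and Rps27l) and 0 lower (10.1% and 12.1%), and in Neu 0 higher and 6 lower (14.6% and 14.7%). With Rpl39l set aside, the members called by edgeR are Rps27l, Rpl22l1 and Rpl38, and the first 2 are paralogs of a ribosomal protein gene. Among the 77 members tested that are not listed as paralogs or ribosomal protein-like, 1, Rpl38, was called.

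The median log2 fold change of the members was 0.13 in BRCA1-null, 0.18 in PyMT tumors and -0.33 in Neu, beside 0.09, -0.11 and -0.05 over all genes. Values above 0 numbered 51, 64 and 10 of the 84 members. Within batch A alone the medians were 0.11, 0.29 and -0.46, and within batch B 0.06, 0.10 and -0.18. The direction depends on the scaling. TMM multiplies library sizes by 1.23 and 1.06 in BRCA1-null and by 0.881 and 0.888 in PyMT, so it lowers the former and raises the latter. With library size set to all UMIs, a setting added after the data were seen, the medians were 0.42, -0.09 and -0.36, beside 0.37, -0.37 and -0.07 over all genes. There 9 members were higher in BRCA1-null (22.6% of all genes) and 1, Rps27l, lower (5.94%). In Neu 2, Rps15a and Rpl39l, were lower (9.81%) and 0 higher (12.5%). Rpl39l, with 0 UMIs in Neu, passed the filter on low counts only through its BRCA1-null counts. Its calls in BRCA1-null and in Neu support nothing. In PyMT 1 was higher (4.83%) and 0 lower (9.93%). Those higher in BRCA1-null included Rpl39l, Rpl5, Rplp0, Rps15a, Rps12, Rpl30, Rpl8 and Rps2. Of all calls in BRCA1-null 79.2% were then increases, against 64.7% with TMM, and in PyMT 32.7% against 48.9%. The sign of the members' own median in PyMT turned between the scalings. Members were below the median gene in Neu and above it in PyMT under both. In BRCA1-null they were close to it under both (0.13 against 0.09, and 0.42 against 0.37). A change of library size moves all genes nearly alike, so the second scaling is no separate check of that position.

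Rpl38 rose in PyMT tumors and was the member whose share ranged most between libraries. It codes for a small protein of the large subunit that is known for its part in the translation of a set of Hox mRNAs (chr11:114668524-114672331, GRCm38, plus strand). It was at 5090 and 7050 TMM-scaled CPM in PyMT A and B, at 1993 and 1409 in BRCA1-null and at 922 and 2106 in Neu, and at 1098 plain CPM in 4T1. Both PyMT libraries lay above the other 5, and they did so within each batch. The log2 fold change was 1.92 (standard error 0.38, adjusted p = 0.0211 by edgeR). As a share of ribosomal protein UMIs, it was 1.82% and 2.48% in PyMT tumors and 0.436% to 0.833% elsewhere. Without PyMT A, PyMT B or Neu A the log2 fold change was 2.15, 1.67 or 1.69 and no longer passed the test (adjusted p = 0.0994, 0.152 and 0.0569 by edgeR).

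The neighbors of Rpl38 on chromosome 11 were higher in PyMT tumors as well. Within 2 Mb on either side of its start, 43 of 65 genes tested were higher (66.2%, against 7.05% of all genes), 1 was lower, and the median log2 fold change was 1.53. From 110 Mb to the end of the chromosome 104 of 171 genes were higher (60.8%, median 1.52), whereas on the rest of chromosome 11 the count was 66 of 977 (6.76%, median -0.17). Rpl38 is the only one of the 7 members on chromosome 11 that lies past 110 Mb, and the other 6 were between -0.14 (Rpl27) and 0.35 (Rpl19), none of them called. The window and the limit of 110 Mb were chosen after the values were seen, so no test is attached. The block also holds Mrps7, Mrpl58 and Mrpl38, of the mitochondrial ribosome, and Rptor, which codes for the mTORC1 scaffold Raptor. Both PyMT tumors grew from 1 line, so tumor type and line cannot be told apart, and the number of copies of the region was not measured. The 2 Mb around the other called members held no such run in the direction of the call: 1 of 37 genes near Rps27l and 0 of 11 near Rpl22l1 were lower in BRCA1-null, and 2 of 25 near Rpl39l were higher.

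**Figure D3:**
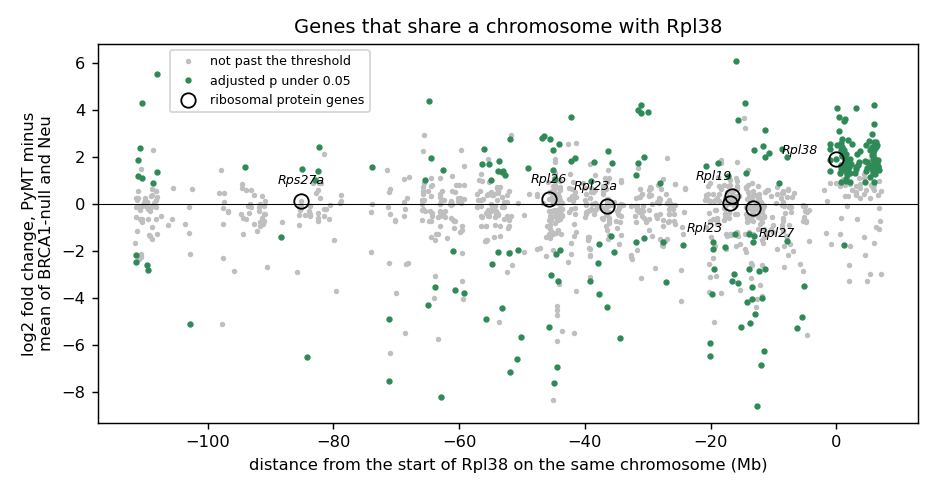
Log2 fold change of PyMT over the mean of BRCA1-null and Neu (vertical axis) for the genes on the chromosome of Rpl38, by distance from its start in Mb; green points passed the test and circles are ribosomal protein genes. The dense green group at the right end holds Rpl38 (104 of 171 genes from 110 Mb on are higher), and the 6 other circled members lie near 0.

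Rps27l and Rpl22l1 fell in BRCA1-null tumors, and both are paralogs of a more abundant member. Rps27l (chr9:66946086-66949516) pairs with Rps27 and is a known target of p53, whose gene is floxed in the BRCA1-null mice. The part of p53 in the values below was not tested. It was at 486 and 366 TMM-scaled CPM in BRCA1-null A and B, 1099 and 1672 in PyMT tumors and 828 and 1577 in Neu, and at 497 plain CPM in 4T1. Both BRCA1-null libraries lay below the PyMT and Neu libraries. On the plain scale they were at 599 and 387 CPM, with 4T1 between them. The log2 fold change was -1.60 (standard error 0.38, adjusted p = 0.0219 by edgeR). Its paralog Rps27 was at 2070 and 2454 CPM in BRCA1-null, 2560 and 3070 in PyMT tumors and 1510 and 2773 in Neu, which overlap, with a log2 fold change of -0.12 (adjusted p = 0.812 by edgeR). Rps27l did not pass without BRCA1-null B (adjusted p = 0.0561), PyMT B (0.0701) or Neu B (0.0575), by edgeR, at log2 fold changes of -1.49, -1.45 and -1.35.

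Rpl22l1 (chr3:28805436-28807424) is the paralog of Rpl22, which is known to repress it. It was at 472 and 442 TMM-scaled CPM in BRCA1-null A and B, 1444 and 903 in PyMT tumors and 791 and 917 in Neu, and at 772 plain CPM in 4T1. On the plain scale BRCA1-null was at 582 and 467 CPM, and both of its libraries were the lowest of the 7. The log2 fold change was -1.13 (standard error 0.29, adjusted p = 0.0281 by edgeR), and it missed the threshold with library size set to all UMIs (-0.83, adjusted p = 0.0646) and without BRCA1-null B, PyMT A, Neu A or Neu B (0.0564 to 0.0817). Rpl22 itself was at 1626 and 1835 CPM in BRCA1-null, 994 and 1686 in PyMT tumors and 873 and 1319 in Neu, and did not pass (log2 fold change 0.51, adjusted p = 0.260 by edgeR). Rpl36al (chr12:69182731-69184083), a paralog of Rpl36a, was at 427 and 484 CPM in BRCA1-null, 918 and 924 in PyMT tumors and 528 and 939 in Neu. These did not overlap either, but the log2 fold change of -0.85 did not pass (standard error 0.30, adjusted p = 0.0789 by edgeR). Reads of Rpl36al and Rpl36a may be exchanged, which was not tested.

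**Figure D4:**
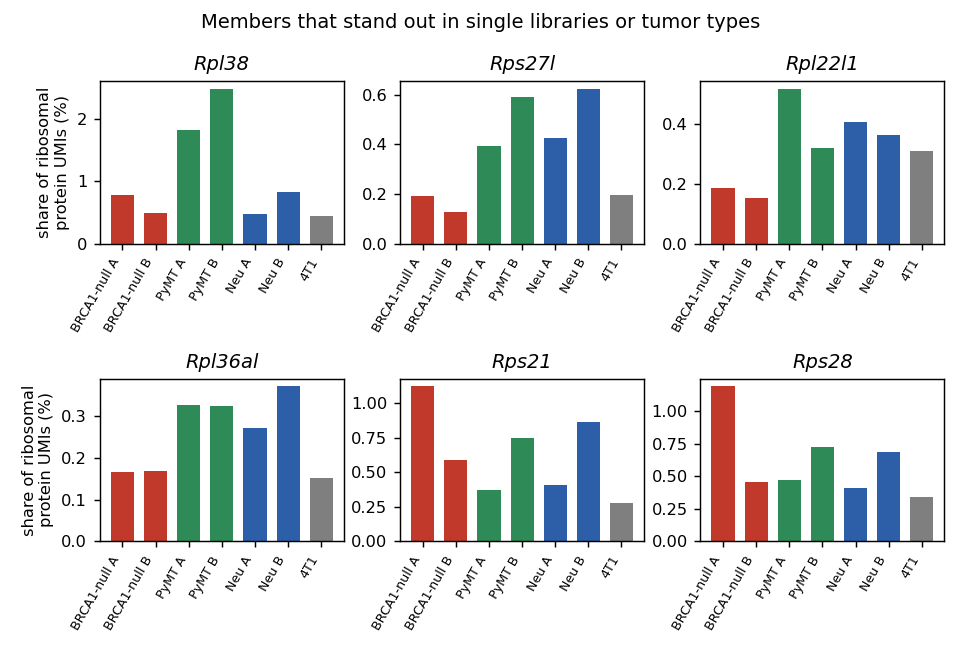
Share of ribosomal protein UMIs (%, vertical axes from 0) of 6 members in the 7 libraries; each bar is 1 library. Rpl38 is highest in both PyMT libraries (1.82% and 2.48%), Rps27l and Rpl22l1 are lower in both BRCA1-null libraries than in the PyMT and Neu libraries, and Rps21 and Rps28 are highest in BRCA1-null A.

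Rpl39l was the member higher in BRCA1-null tumors, at a very low level. It is a paralog of Rpl39 with high expression in testis (chr16:10170226-10174911). Its UMIs numbered 8 in BRCA1-null A and 45 in B, 2 in PyMT B and 0 in the other 4 libraries, where a count of 0 allows 0.0891 to 0.166 CPM (3 counts a library). Cells with a UMI were 3 of 245 in BRCA1-null A (1.22%, Clopper-Pearson 95% interval, exact, 0.253% to 3.54%) and 34 of 2078 in B (1.64%, 1.14% to 2.28%), against 2 of 1842 in PyMT B (0.109%). Median depths of these libraries were 18273, 11970 and 19410.5 UMIs a cell. Pooled, it was at 1.51 CPM in BRCA1-null and 0.0179 CPM in PyMT and Neu, a ratio of 84.3. No interval is attached to this ratio, since UMIs of 1 cell are not independent and the libraries are the replicates. Rpl39, which shares much of its sequence, was at 3787 and 2609 TMM-scaled CPM in BRCA1-null and did not pass (log2 fold change 0.38, adjusted p = 0.416 by edgeR). Without BRCA1-null B Rpl39l was not tested, as its counts were too low.

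The other rare paralogs were near 0. Rpl3l, a paralog of Rpl3 known from striated muscle, had 3 UMIs in Neu A, 2 in Neu B, 1 in 4T1 and 0 elsewhere. Rpl10l, a paralog of Rpl10 expressed in testis, had 0 UMIs in every library, which allows a share of cells with a UMI of up to 0.130% (Neu A) to 1.22% (BRCA1-null A). Together, the 9 paralogs and ribosomal protein-like members in the matrices took 1.12% of ribosomal protein UMIs.

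BRCA1-null A stood apart in single members. Rps21, Rps28, Rps27rt and Rpl27 had at least 2 times the median share of the other libraries there, and Rpl13 at most 0.5 times. Rps27l was at most 0.5 times there too, but also in BRCA1-null B and in 4T1. Rps21 (chr2:180257377-180258445), a small protein of the small subunit, was at 1.12% of ribosomal protein UMIs in BRCA1-null A and at 0.586% in B, 0.370% and 0.749% in PyMT tumors, 0.409% and 0.863% in Neu and 0.276% in 4T1. Rps28 (chr17:33819027-33824562), near the mRNA exit of the small subunit, was at 1.19% and 0.456% in BRCA1-null, 0.471% and 0.724% in PyMT tumors, 0.409% and 0.684% in Neu and 0.337% in 4T1. For both, replicates of a type differed as widely as the types did, and the types overlapped. Rpl27, of the large subunit, was at 0.859% in BRCA1-null A and 0.295% to 0.413% elsewhere. Rps27rt, an Rps27-like gene on chromosome 9 whose reads may be exchanged with those of Rps27, was at 0.199% in BRCA1-null A and 0.0470% to 0.103% elsewhere.

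Rpl13, of the large subunit, went the other way. It was at 1.27% in BRCA1-null A against 2.90% in B, 2.74% and 2.08% in PyMT tumors, 2.70% and 2.34% in Neu and 3.91% in 4T1. None of these 5 members passed the test in any of the 3 tumor type comparisons. In 4T1, Rps21, Rps27l and Rpl37a were at most 0.5 times the median of the others, Rpl37a at 0.689% against 0.990% or more in the other 6 libraries. This is 1 library of another strain, with no replicate.

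Rpl13, Rplp0, Rpl32 and Rpl41 were among the 5 members with most UMIs. Rplp0, the base of the large subunit stalk, was at 9101 and 8310 plain CPM in BRCA1-null, 5737 and 4903 in PyMT tumors, 4342 and 4397 in Neu and 7523 in 4T1. BRCA1-null was highest and Neu lowest. Its log2 fold change was 0.56 in BRCA1-null (standard error 0.25, adjusted p = 0.133 by edgeR with TMM) and 0.85 with library size set to all UMIs (adjusted p = 0.0246). Rpl32 was steady as a share, at 1.99% to 2.14% in 6 libraries and 2.68% in BRCA1-null B. Rpl41, the shortest member, was at 2.87% and 1.31% in BRCA1-null A and B and between 1.71% and 2.79% elsewhere.

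With library sizes set to the UMIs of the ribosomal proteins themselves, what is left is the makeup of the group. In BRCA1-null tumors 1 member was higher (Rpl39l, set aside above) and 3 were lower, where 16.0% and 10.6% of all genes were. The 3 were Rps27l (-1.68), Rpl22l1 (-1.25) and Rpl36al (-0.95). In PyMT tumors the counts were 1 and 0 (Rpl38, beside 5.15% and 9.19%) and in Neu 0 and 0 (19.7% and 7.31%). Within 0.25 of 0 on the log2 scale were 44 members in BRCA1-null, 58 in PyMT tumors and 56 in Neu, of 84 tested.

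Between cells of a library the share varied widely in BRCA1-null tumors. The 95th percentile of cells was 3.48 and 4.01 times the 5th in BRCA1-null A and B, 2.22 and 2.15 times in PyMT A and B, 1.97 and 1.89 times in Neu A and B and 2.03 times in 4T1. In BRCA1-null B it ran from 10.9% to 43.5% of UMIs and in Neu B from 16.7% to 31.4%. The range was widest in the BRCA1-null libraries and narrowest in the Neu libraries. When the cells of a library were ranked by UMIs and divided into 3 classes of equal number, the upper class had a higher share than the lower by 7.47 and 10.5 points in BRCA1-null A and B, 1.69 and 3.53 in PyMT A and B, and 1.32 in 4T1. In Neu it was -0.493 and -1.44 points. Depth and share thus moved together in 5 of 7 libraries.

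Cells with mesenchymal markers, found in numbers only in BRCA1-null tumors, had a lower share. Those in which 2 or more of 8 markers (such as Col1a1 and Sparc) were detected after thinning to 3000 UMIs were at 29.2% in A (27 cells) and 28.1% in B (902 cells), against 32.9% and 32.1% in cells with none. The differences were -3.62 and -4.05 points, and the BRCA1-null cells without these markers were also above every other tumor's pooled share. The median UMIs of these cells were 20642 and 11140, against 22442 and 16093. In cells thinned to 3000 UMIs the differences were -4.81 and -5.98 points, and with 1 more marker required it was -6.21 in B, with too few cells in A.

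Barcodes with 20% or more mitochondrial UMIs, which the cell filter removed, had a lower share in 7 of 7 libraries. As a share of UMIs that are not mitochondrial, the difference from the cells kept was -17.8 and -8.91 points in BRCA1-null A and B, -9.38 and -4.89 in PyMT tumors, -3.71 and -5.69 in Neu and -12.7 in 4T1. The mean was -9.01 ± 4.96 (SD over 7 libraries). These barcodes held medians of 1590 to 5008 UMIs, against 8609 to 19410.5 in the cells kept. Cells with at least 5 of 8 immediate early markers, such as Fos and Jun, which are often induced by dissociation, differed from those with at most 2 by -1.07 ± 1.08 points, with 5 of 7 libraries lower and both Neu libraries slightly higher (0.424 and 0.104). With 1 more marker required the mean was -1.86 ± 2.16 points with 6 of 7 libraries lower, and Neu B was at -0.184.

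Proliferating cells showed no common direction of the total. These were cells in which 2 or more of 8 markers of mitosis, such as Top2a and Cdk1, were detected, against cells with none. Their share of ribosomal protein UMIs was 30.8% against 32.0% in BRCA1-null A, 29.7% against 30.6% in B, 28.7% against 24.6% in PyMT A, 26.7% in PyMT B (1.71 points above its other cells), 18.2% against 20.6% in Neu A, 20.8% against 23.6% in Neu B and 24.4% against 25.5% in 4T1. It was higher in both PyMT libraries and lower in the other 5, with a mean of -0.362 ± 2.43 points (SD, n = 7). PyMT A held 19 such cells and the other libraries 31 to 252. Proliferating cells were deeper in 7 of 7 libraries, with medians of 15081 to 32053 UMIs against 9352 to 19178 in the other cells. In cells thinned to 3000 UMIs the mean was -0.303 ± 2.29 points, with 3 libraries higher, BRCA1-null B among them (0.0366), and 4 lower. With 1 more marker required it was -1.59 ± 1.64 over 6 libraries, of which 1, PyMT B, was higher (1.55), and PyMT A had too few cells.

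**Figure D5:**
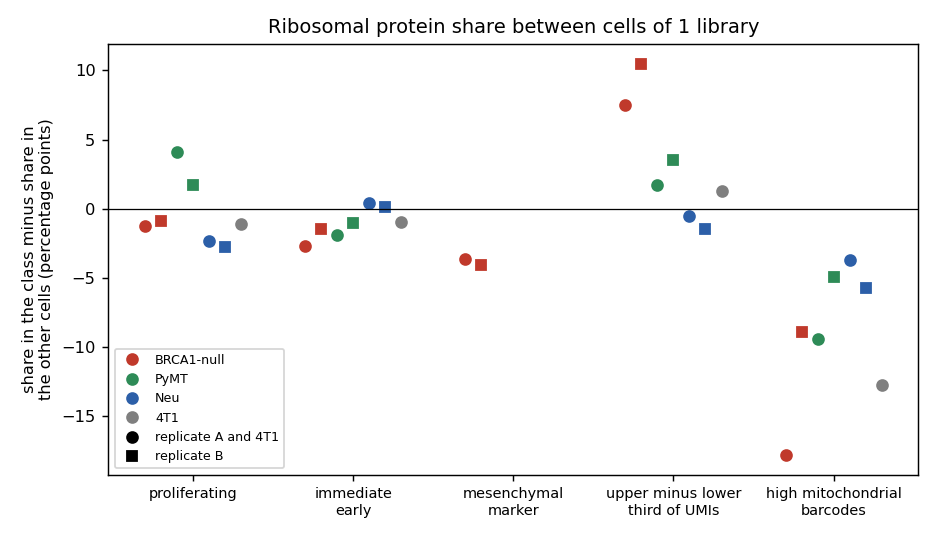
Ribosomal protein share of a class of cells minus that of the other cells of the same library (percentage points, vertical axis); each point is 1 library, colors are tumor types, circles replicate A and 4T1, squares replicate B. High mitochondrial barcodes lie below 0 in 7 of 7 libraries, and proliferating cells lie above 0 in PyMT only.

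Gene by gene, proliferating and other cells were compared with the library as a block (edgeR's quasi-likelihood test, 7 libraries, 12374 genes with 83 members). At an adjusted p under 0.05, 0 members were higher and 59 lower, against 10.6% of all genes higher and 20.3% lower; 65 members (41.9% of all genes) were at an unadjusted p under 0.05, and DESeq2 called 0 higher and 47 lower (10.9% and 14.3% of all genes). The median log2 difference of the members was -0.22, close to that of all genes (-0.18), and the count changed with the scaling. With library size set to all UMIs, 4 members were higher (Rps19bp1, Rps2, Rps27l and Rpsa; 16.5% of all genes) and 5 lower (Rps27rt, Rps27, Rps26, Rps14 and Rpl17; 10.2%), and with it set to ribosomal protein UMIs 7 were higher (17.2%) and 8 lower (7.78%). Increases made up 34.2% of all calls with TMM, 37.5% with size factors, 61.8% with all UMIs and 68.9% with ribosomal protein UMIs.

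The members with the largest decrease were Rps27rt, Rps27, Rpl10 and Rps26, each lower in 7 of 7 libraries. Rps27, a zinc finger protein of the small subunit, was at 1731 and 2065 CPM in proliferating cells of BRCA1-null A and B, 1893 and 2461 in PyMT tumors, 911 and 1862 in Neu and 1428 in 4T1. In the other cells it was at 2516, 2767, 2866, 3468, 1643, 3124 and 1743 in the same order. The log2 difference was -0.56 (standard error 0.07, adjusted p = 5.6e-05 by edgeR), and it lay between -0.85 and -0.29 in the single libraries.

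Rps27rt, whose reads may be exchanged with those of Rps27, was at -0.63 (standard error 0.10, adjusted p = 0.000317 by edgeR). Rps26, which binds mRNA at the exit channel, was at -0.42 (standard error 0.07, adjusted p = 0.000278), and Rpl10, needed for the joining of the subunits, at -0.42 (standard error 0.07, adjusted p = 0.000317). Rps27, Rps27rt and Rps26 were lower and past the threshold with TMM, size factors, all UMIs and ribosomal protein UMIs as the scale. Rpl10 missed it with all UMIs (-0.22, adjusted p = 0.0515). On the scale of ribosomal protein UMIs the members higher in proliferating cells included Rps19bp1 (0.39), Rps2 (0.32), Rps27l (0.30), Rpsa (0.27), Rpl41 (0.22) and Rpl8 (0.18). With TMM, Rps2 was at 0.09 and Rps27l at 0.08 and neither was called. A test of whether the difference in PyMT departed from that in BRCA1-null and Neu called 0 of 83 members, against 0.110% of genes higher and 0.501% lower.

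Within the total of a cell most members varied little beyond counting, and the members that varied most were paralogs and ribosomal protein-like genes. The variance between cells beyond counting, after scaling to the ribosomal protein total of a cell, was, among members with a mean of at least 0.1 UMI a cell in every library, largest for Rpl22l1 (median over libraries 0.215), Rpl7l1 (0.207), Rps27l (0.129), Rps19bp1 (0.116) and Rpl36al (0.0667), and was 0.0424 for Rps27, the next. Rpl7l1 is related to Rpl7 and acts in the assembly of the large subunit, and Rps19bp1 codes for a protein that binds Rps19.

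For Rpl22l1 the excess was 0.782 and 0.469 in BRCA1-null A and B, 0.215 and 0.161 in PyMT tumors, 0.0653 and 0.0946 in Neu and 0.391 in 4T1. It was higher in BRCA1-null and 4T1 than in PyMT and Neu. Its share of ribosomal protein UMIs in proliferating over other cells was -0.51 and -0.32 on the log2 scale in BRCA1-null, 0.29 and 0.37 in PyMT tumors, 0.07 and 0.25 in Neu and 0.07 in 4T1. In immediate early cells it was 0.83 and 0.50 in BRCA1-null, 0.06 and -0.01 in PyMT tumors, -0.10 and -0.15 in Neu and 0.43 in 4T1. Rps27l was higher in proliferating cells in 7 of 7 libraries by this measure (0.02 to 0.47), as a share of ribosomal proteins.

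Among other genes of the pathway, those of ribosome biogenesis stood out in BRCA1-null and Neu tumors. Of 30 ribosome biogenesis genes, 14 were higher in BRCA1-null and 0 lower (17.8% and 9.72% of all genes), with a median log2 fold change of 0.87 against 0.09 over all genes. In Neu 7 of them were lower and 0 higher (9.76% and 13.4% of all genes; median -0.74), and in PyMT 0 were called (7.05% of all genes higher and 7.37% lower; median -0.12). Wdr12, of the complex that matures the large subunit, was at 47.0 and 53.6 TMM-scaled CPM in BRCA1-null, 15.8 and 16.6 in PyMT tumors and 19.0 and 15.2 in Neu (log2 fold change 1.60, adjusted p = 0.00428 by edgeR). Nolc1, a nucleolar chaperone, rose by 1.35 (adjusted p = 0.00497). Nop56, a core protein of box C/D snoRNPs, rose in BRCA1-null (0.95, adjusted p = 0.0147) and fell in Neu (-1.34, adjusted p = 0.00817), all by edgeR. Proliferation markers summed to 903 and 229 CPM in BRCA1-null A and B, 32.8 and 107 in PyMT and 75.9 and 150 in Neu. Both BRCA1-null libraries were above the PyMT and Neu libraries, and within each batch Neu was above PyMT. The 4T1 library was at 385 CPM, between BRCA1-null A and B. The part of proliferation in the values of the ribosome biogenesis genes was not tested.

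Of 22 translation factors and other TOP mRNAs tested, 4 were higher in BRCA1-null and 1 was lower in Neu, where 17.8% and 9.76% of all genes were, so these shares were near or under those of all genes. The former include Npm1, a nucleolar chaperone (1.37, adjusted p = 0.00786), Hnrnpa1 (1.11, adjusted p = 0.0142) and Nap1l1 (1.35, adjusted p = 0.0200), by edgeR in BRCA1-null. Of 16 regulators of ribosomal protein synthesis, 1 was higher in BRCA1-null (17.8% of all genes), 2 were higher in PyMT tumors (7.05%) and 1 was lower in Neu (9.76%). The first was Mycn, at 0.727 and 3.52 TMM-scaled CPM in BRCA1-null against at most 0.128 in the other types, a level too low for its call to support anything. Myc, which drives ribosome synthesis, fell in Neu, at 28.0 and 25.5 CPM against at least 53.4 in the other types (-1.33, adjusted p = 0.0121 by edgeR). Rptor rose in PyMT, at 30.8 and 20.0 CPM against 5.86 to 9.16 (1.79, adjusted p = 0.0154 by edgeR), and lies in the block of chromosome 11 described above.

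Mitochondrial ribosomal protein genes, which serve a separate ribosome, were called in both directions. Of 78, 1 was higher and 11 lower in BRCA1-null, 5 and 1 in PyMT tumors and 5 and 4 in Neu, with medians of -0.11, -0.08 and 0.11. Of all genes 17.8% and 9.72%, 7.05% and 7.37%, and 13.4% and 9.76% were, in the same order. The smallest adjusted p belonged to Mrps7 (log2 fold change 2.05 in PyMT, adjusted p = 0.00478), Mrpl58 (1.62, adjusted p = 0.00620) and Mrpl38 (1.51, adjusted p = 0.00762), by edgeR, and all 3 lie in that block. Of the 12 milk genes, 8 were lower in BRCA1-null (9.72% of all genes), 2 higher in PyMT tumors (7.05%) and 7 higher in Neu (13.4%). Csn3, a casein, was at 390 and 451 TMM-scaled CPM in BRCA1-null, 19758 and 21259 in PyMT tumors and 29186 and 35834 in Neu, and Xdh (5.09 and 7.43, 25.7 and 41.5, 108 and 136) and Csn1s2b (0.291 and 0.960, 1.19 and 6.84, 46.1 and 231) had the same order.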

How the data were processed

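UMI counts, not normalized, were deposited as a matrix of genes by cell barcodes for each library, which the authors made with Cell Ranger and its prebuilt mm10 package. Submitters' processing notes list Cell Ranger 2.2.0 for 4 libraries (the A libraries and 4T1) and 3.0.2 for the 3 B libraries, while the matrix headers name 3.0.2. No source used here gives a version for STAR. The part of the version difference was not tested.

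The members and gene lists were chosen with earlier results of these data known. UMIs were summed per library (or per library and class of cell), because cells are not replicates. Sums were tested with edgeR 4.0.16 (limma 3.58.1, R 4.3.3) with TMM, filterByExpr, quasi-likelihood and Benjamini-Hochberg adjustment over all genes tested, at a threshold of 0.05. Plain CPM are scaled to the UMIs of the cells kept. The exact permutation tests planned for the share of UMIs were run, but their p-values are not printed, since the share sums genes chosen with results known; 6 libraries in 3 types cannot give less than 0.0667. Shares of cells have exact Clopper-Pearson 95% intervals, which cover counting error only, as does the allowance for a count of 0. Classes of cells used 8 markers each, counted in cells thinned to 3000 UMIs (classes by UMIs or by mitochondrial share were not thinned). Positions and coding lengths are from GENCODE M21 on GRCm38. Python 3.11.15, numpy 2.4.6, scipy 1.17.1, pandas 2.3.3 and matplotlib 3.10.9 were used. The edgeR and DESeq2 fits, the exact test of differences within libraries and the variance beyond counting were tested on simulated data. The other steps were not.

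Named members were up to 5 per direction and tumor type and up to 4 per direction in proliferating cells with the largest change among those past the threshold at 50 CPM or more, the 5 with most UMIs, the 5 that varied most between cells, those 2 times away from the other libraries in 1 library, and every ribosomal protein-like member; of other lists, the 3 genes with the smallest adjusted p. Rpl18, Rps15 and Rps3, the paralogs' partners (Rps27, Rpl22, Rpl36a and Rpl39), members called under other scalings and the neighbors of Rpl38 were named after their values were seen. Rps4l, of the list of ribosomal protein-like genes, was not analysed here, and single values of some members are not reported here. Other settings tried: the Wald test of DESeq2 1.42.0, size factors of DESeq2 in edgeR, library sizes from ribosomal protein UMIs or all UMIs, no filter, the study's cell filters, every barcode, 1 more marker, a replicate block and each library left out. The same replicate letter marks a sequencing batch, according to the study's methods, so it pairs the samples; the deviations of B from A had an r over 13950 genes of 0.190 between PyMT and Neu, 0.0994 between Neu and BRCA1-null and 0.0323 between PyMT and BRCA1-null.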

Additional observations from a re-analysis of the deposited data

Results flagged for a closer look

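Differences between cells of a library ran in opposite directions in different tumor types in 5 cases, each with both replicates of a type on its own side. The cases were picked by this rule from all classes of cells compared, for the total share and for the 5 members that varied most between cells. How many such cases random signs would give was not computed, so their number supports nothing. None of these differences between types was tested, and in each of the first 2 cases 1 library changed side when cells were classed or counted otherwise. The share of ribosomal protein UMIs in proliferating minus other cells was 4.71 percentage points higher in the mean of PyMT than in that of BRCA1-null and Neu. With thinned UMIs BRCA1-null B was on the side of PyMT (0.0366). That of immediate early cells was 2.03 points higher in Neu than in BRCA1-null and PyMT. With 1 more marker required Neu B was on the other side (-0.184). That of the upper minus the lower of 3 equal classes of cells ranked by UMIs was 6.76 points higher in BRCA1-null and PyMT than in Neu. For Rpl22l1, the log2 share of ribosomal protein UMIs in proliferating over other cells was 0.66 higher in PyMT and Neu than in BRCA1-null, and in immediate early over other cells 0.79 higher in BRCA1-null than in Neu.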

How the results depend on the processing

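Members higher in BRCA1-null numbered 1, and 2 with DESeq2, 9 with library size set to all UMIs (added after seeing the data, as were all values with this scale) and 1 to 2 with a library left out. Those lower numbered 2, and 1 with all UMIs and 0 to 2 with a library left out (0 without BRCA1-null B or Neu B). Members higher in PyMT numbered 1, and 3 with DESeq2, 3 with no filter on low counts and 0 to 3 with a library left out (0 without PyMT A, PyMT B or Neu A). Members lower in Neu numbered 0, and 6 with DESeq2, 2 with all UMIs, 2 with no filter and 0 to 3 with a library left out (3 without BRCA1-null A). In proliferating cells 0 were higher, but 7 on the scale of ribosomal protein UMIs and 4 on that of all UMIs; 59 were lower, but 39 with size factors, 8 with ribosomal protein UMIs, 5 with all UMIs and 34 (without PyMT B) to 60 with a library left out. The mean share difference of proliferating cells was -1.10 to 0.0418 points with a library left out and turned sign without Neu B (0.0418). A replicate block, for which the batch pairs the libraries, changed no count. These were 1 higher and 2 lower in BRCA1-null tumors, 1 and 0 in PyMT and 0 and 0 in Neu. Rpl39l is among the members counted as higher in BRCA1-null and among the 2 lower in Neu with all UMIs. Its calls support nothing, since it passed the filter only through its BRCA1-null counts. Of the other values, 83 counts stayed within 1.5 times, 55 shares kept their direction, and of the single genes 95 stayed on their side of the threshold while 12 no longer passed. With no filter, other cell filters, a replicate block or a library left out, the calls over all genes were not counted. Counts of members under those settings do not show whether the members moved apart from other genes. With size factors 2338 of 12374 genes were lower in proliferating cells. The cause of the changes between settings was not tested. BRCA1-null A, with 245 cells, and 2 tumors a type set the limits.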
